A study of Mus musculus with 8 samples.

Results

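Enzymes of the proximal tubule brush border were followed in the kidneys of mice that lack a chain of glomerular basement membrane collagen. The 10 genes considered were Treh, Nat8, Lap3, Anpep, Dpp4, Mep1a, Mep1b, Ggt1, Alpl and Dnase1. Treh, Nat8, Lap3 and Dnase1 were chosen because earlier results of these data showed them low in the mutants, so their differences from wild type are given as a description with no test. The array annotation used here named probe sets for 9 of the 10 genes, among 22180 genes measured, and Ggt1 was not analysed here. All 9 lay above the filter on low values that 7145 genes passed.

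Whole kidneys were taken from mice aged 2 months, and each mouse gave 1 array. The groups were wild type mice (n = 2), Col4a3-/- mice (n = 3), called single mutants, and Col4a3-/-OPN-/- mice (n = 3), called double mutants, which lack osteopontin as well. Both mutant groups thus share the loss of Col4a3, which models Alport syndrome. The strain and the sex of the mice are not given in the labels, and nothing there says how the animals were bred. Values are log2 expression values, so that a difference of -1 means a level lower by a factor of 2.

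The cells of the proximal tubule carry a dense border of microvilli on the side that faces the filtered fluid. Enzymes anchored in that border cut peptides, sugars, phosphate esters and glutathione conjugates in the filtrate, and the cell then takes up the products. Not every gene considered makes a protein of the microvillus membrane. Lap3 encodes a leucine aminopeptidase of the cytosol, Nat8 an N-acetyltransferase of the endoplasmic reticulum that finishes the mercapturic acid pathway, and Dnase1 a secreted endonuclease. In these kidneys the proximal tubule phosphate transporter Slc34a1 measured between 11.83 and 12.87. The intestinal brush-border enzymes Alpi, Lct and Sis measured at most 5.08, close to the array medians of 5.18 to 5.25.

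Col4a3 itself measured 8.42 and 8.77 in wild type, 6.60 to 7.67 in single mutants and 6.13 to 7.60 in double mutants, without passing the test (adjusted p in limma 0.162 and 0.0998), and whether its probes lie in the deleted part is not known here. The second deletion was not checked. The mice differed in sex between the groups, as read from the arrays. Xist, which is made from the inactive X chromosome of females, measured 8.85 to 10.02 in single mutants 1 and 3 and double mutants 1 and 2, and 4.52 to 4.64 on the other 4 arrays. From these values wild type 1, wild type 2, single mutant 2 and double mutant 3 were taken as male. Comparisons of the enzymes are given from a model of the 3 groups and from one with a term for sex, which is estimated from the mutants and taken as equal in all groups.

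Stretches of promoter were read from RefSeq (build GRCm38.p6), with 15 windows of 9 of the genes (Mep1b left out), to set the enzymes beside binding sequences of HNF4 and HNF1, the transcription factors that maintain proximal tubule identity. In the windows printed here, capitals mark CAAAGTCCA, an HNF4 sequence, in Treh and Nat8, and GTTAAT, the core of the HNF1 site, in Alpl and Dnase1, all read here on the opposite strand. Lap3 is shown as a promoter with neither.
Treh, chr9:44673133-44673232, plus strand: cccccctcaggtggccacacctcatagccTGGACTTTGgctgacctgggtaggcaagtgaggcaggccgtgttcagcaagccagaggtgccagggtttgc
Nat8, chr6:85832269-85832359, minus strand: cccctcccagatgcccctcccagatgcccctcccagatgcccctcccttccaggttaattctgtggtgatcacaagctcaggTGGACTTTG
Alpl, chr4:137766476-137766575, minus strand: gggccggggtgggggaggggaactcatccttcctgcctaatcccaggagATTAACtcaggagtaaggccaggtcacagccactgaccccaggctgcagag
Dnase1, chr16:4036786-4036885, plus strand: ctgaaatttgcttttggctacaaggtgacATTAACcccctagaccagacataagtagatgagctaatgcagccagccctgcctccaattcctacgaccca
Lap3, chr5:45493274-45493373, plus strand: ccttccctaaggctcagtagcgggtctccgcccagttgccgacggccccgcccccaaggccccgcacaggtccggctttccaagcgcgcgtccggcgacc

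Across 32851 windows of 300 bases, from 250 before a start to 50 after it, CAAAGTCCA was found on either strand in 0.475%. It lay at -71 to -63 from the Treh start and at 3 to 11 after the second Nat8 start, and in no other of the 15 windows of these genes. GTTAAT was found in 7.1% of all windows and in 3 of the 15, at -51 to -46 in the second Alpl window, at -221 to -216 in the first Dnase1 window and at -27 to -22 in the second Nat8 window, where it is printed in small letters. The full palindrome GTTAATNATTAAC, in 0.00913% of all windows, was in none of them. These were 3 of 11 patterns searched, and the printed stretches were chosen after the matches were seen. The windows also differed in CpG dinucleotides: Lap3 held 33, Anpep 28 and the first Alpl window 26, while Treh held 3, Dpp4 4, Mep1a 6 and each Dnase1 window 4, against a median of 7. A match here is a run of letters and no evidence of binding.

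Treh, Nat8 and Lap3 were lower in all mutants by wide and even margins. Treh encodes trehalase, a membrane-anchored enzyme that splits the sugar trehalose (chromosome 9, 44673233 to 44686305). It measured 9.26 and 9.97 in wild type, 7.58, 7.90 and 7.74 in single mutants, and 7.44, 7.99 and 7.70 in double mutants. All 6 mutants lay below both wild type mice, and the mutant groups overlapped. The group means were 9.62 ± 0.50 (SD, n = 2), 7.74 ± 0.16 (SD, n = 3) and 7.71 ± 0.27 (SD, n = 3), levels 3.67-fold lower in single and 3.75-fold lower in double mutants.

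Nat8 (chromosome 6, 85830387 to 85836857) measured 8.27 and 8.77 in wild type, 6.55, 6.64 and 6.21 in single mutants, and 6.41, 7.13 and 7.08 in double mutants. Again no mutant reached the lower wild type value. The means were 8.52 ± 0.36 (SD, n = 2), 6.47 ± 0.23 (SD, n = 3) and 6.88 ± 0.40 (SD, n = 3), and the mutant levels were 4.16-fold and 3.13-fold lower. Lap3 (chromosome 5, 45493374 to 45512691), which trims amino acids from the ends of peptides, measured 11.24 and 11.78 in wild type. Its values were 10.12, 10.09 and 10.23 in single mutants and 10.56, 10.75 and 10.44 in double mutants. Lap3 was thus 2.57-fold lower in single and 1.89-fold lower in double mutants, and each group had a range of its own.

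Among the membrane peptidases, Anpep, Mep1a and Mep1b were lower in every mutant and Dpp4 was not. Anpep encodes aminopeptidase N, which removes single amino acids from peptides (chromosome 7, 79821803 to 79848210). It measured 10.41 and 10.31 in wild type, 9.77, 9.01 and 10.001 in single mutants, and 9.66, 9.88 and 9.66 in double mutants. Single mutant 2 was the lowest, and the female single mutant 3 the highest of the mutants.

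Mep1a and Mep1b encode the subunits of meprin, a metalloprotease of the brush border. Mep1a (chromosome 17, 43474324 to 43504143) measured 11.49 and 11.81 in wild type, 11.09, 10.74 and 11.37 in single mutants, and 10.96, 11.32 and 10.90 in double mutants. Mep1b (chromosome 18, 21072344 to 21100199) measured 9.09 and 9.77 in wild type, 8.67, 7.33 and 8.51 in single mutants, and 7.89, 8.10 and 7.92 in double mutants. For both subunits all mutants lay below wild type, the margin was wider for Mep1b, and single mutant 2 was the lowest of the 8 arrays.

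Dpp4 encodes dipeptidyl peptidase 4, which clips dipeptides from peptides that carry proline or alanine next to their end (chromosome 2, 62330073 to 62412315). It measured 8.43 and 8.48 in wild type, 8.93, 8.28 and 9.10 in single mutants, and 8.86, 8.78 and 8.16 in double mutants. The 4 females, all mutants, lay above wild type, and the 2 male mutants lay below it. The group means of 8.46 ± 0.04 (SD, n = 2), 8.77 ± 0.43 (SD, n = 3) and 8.60 ± 0.38 (SD, n = 3) therefore mix opposite positions.

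Alpl and Dnase1 had the widest spread among single mutants. Alpl encodes the tissue-nonspecific alkaline phosphatase, which releases phosphate at the cell surface (chromosome 4, 137741731 to 137796384). It measured 10.47 and 10.32 in wild type, 10.10, 8.14 and 10.67 in single mutants, and 10.50, 10.15 and 9.70 in double mutants. Single mutant 3 and double mutant 1, both female, exceeded the wild type, so the ranges overlapped. A second Alpl probe set, with a lower mean, differed from wild type by -0.49 in single and -0.31 in double mutants, beside -0.76 and -0.28 for the first.

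Dnase1 encodes deoxyribonuclease I, which digests DNA outside cells (chromosome 16, 4036958 to 4040024). It measured 11.88 and 11.80 in wild type, 10.73, 7.64 and 11.08 in single mutants, and 10.77, 10.13 and 9.88 in double mutants. Every mutant was below wild type, but single mutant 2 was far below the rest, and the single mutant mean of 9.82 ± 1.89 (SD, n = 3) rests on it. The wild type mean was 11.84 ± 0.06 (SD, n = 2), and that of double mutants 10.26 ± 0.46 (SD, n = 3).

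**Figure D1:**
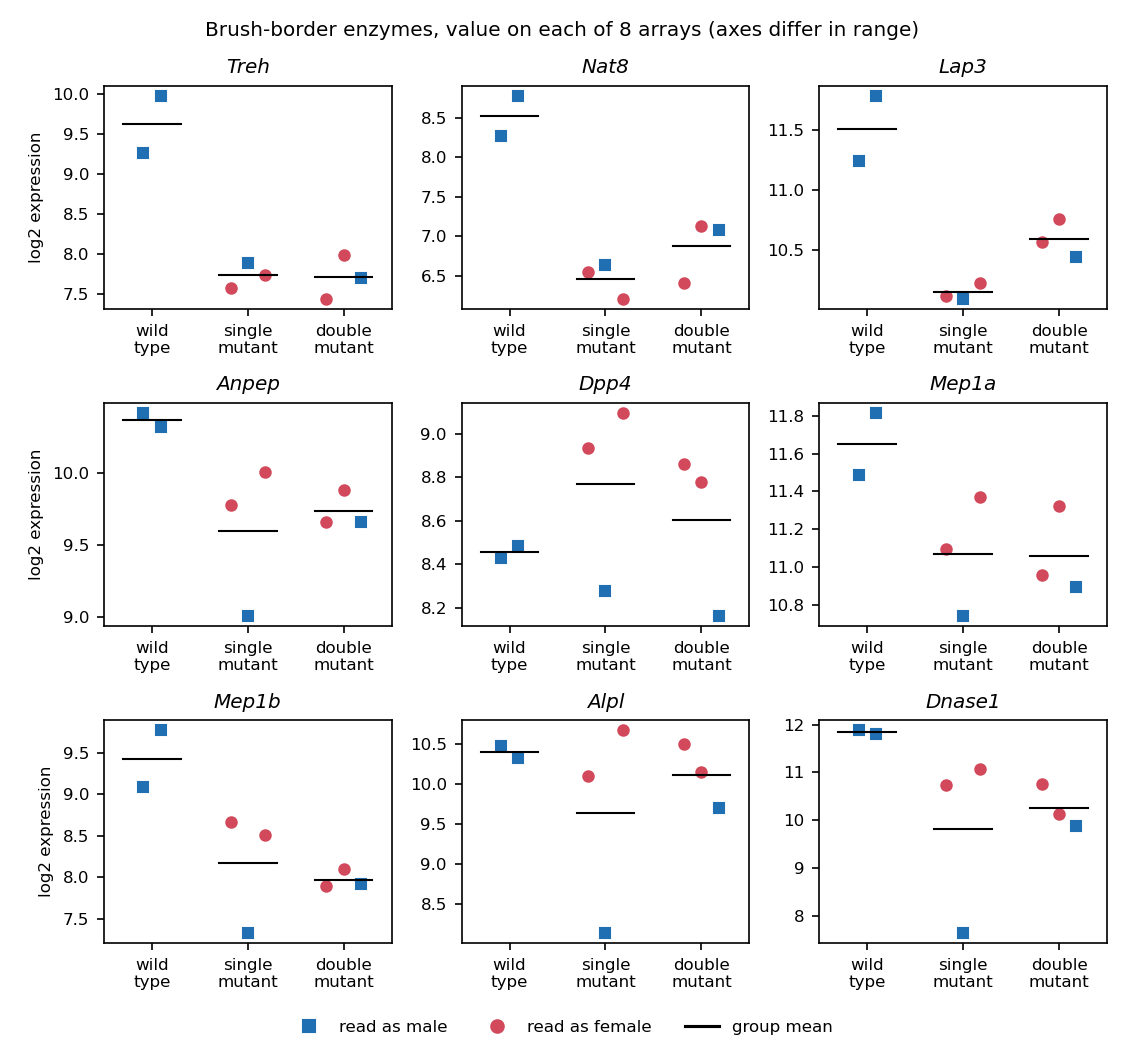
Value of 9 enzyme genes on each of 8 arrays, in log2 expression, by group; squares are mice read as male, circles mice read as female, and bars group means. Treh, Nat8 and Lap3 show mutants clustered well below wild type, whereas in Alpl and Dnase1 single mutant 2, at 8.14 and 7.64, stands below all others and in Dpp4 the male mutants lie below the females.

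Single mutants were compared with wild type to ask which of the enzymes not chosen for a fall differed. The differences were -0.77 (SE 0.27) for Anpep, -0.58 (SE 0.22) for Mep1a, -1.26 (SE 0.39) for Mep1b, -0.76 (SE 0.65) for Alpl and 0.31 (SE 0.29) for Dpp4. None of these 5 passed in the model of the 3 groups, where the adjusted p in limma was 0.159 for Anpep, 0.18 for Mep1a, 0.134 for Mep1b, 0.483 for Alpl and 0.518 for Dpp4. At an unadjusted p under 0.05, 3 of the 5 passed, beside 23.2% of all tested genes, and 0.028% of all genes passed after adjustment. The chosen genes had differences of -1.88 (SE 0.24) for Treh, -2.06 (SE 0.26) for Nat8, -1.36 (SE 0.18) for Lap3 and -2.02 (SE 0.90) for Dnase1.

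With the term for sex, 4 of the 5 fell in single mutants. The differences were -1.10 (SE 0.23, adjusted p = 0.0162) for Anpep, -0.83 (SE 0.21, adjusted p = 0.0261) for Mep1a, -1.70 (SE 0.36, adjusted p = 0.0161) for Mep1b and -1.71 (SE 0.43, adjusted p = 0.0263) for Alpl. Dpp4 differed by -0.15 (adjusted p = 0.408). In that model 19.9% of all tested genes were called lower and 7.31% higher, so a call was common among genes at large. Lower genes made up 73.2% of all calls, and 55.7% after cyclic loess normalization, where Anpep, Mep1b and Alpl passed and Mep1a did not. The calls rested on a few arrays. Without single mutant 2 no gene of the whole table was called, and without wild type 2 none of the 5 enzymes was, with 0.924% of all genes. Without wild type 1, Mep1a and Mep1b were called. Without single mutant 2, the difference of Alpl moved to -0.63, that of Mep1b to -0.91 and that of Anpep to -0.59.

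Double mutants were compared with wild type in the same way. The differences were -0.63 (SE 0.27) for Anpep, -0.59 (SE 0.22) for Mep1a, -1.46 (SE 0.39) for Mep1b, -0.28 (SE 0.65) for Alpl and 0.15 (SE 0.29) for Dpp4. In the model of the 3 groups none of the 5 passed, with adjusted p from 0.101 for Mep1b to 0.829 for Alpl, and 0.084% of all genes were called. At an unadjusted p under 0.05, 3 of the 5 passed, beside 21.6% of all genes. With the term for sex 3 fell: Anpep at -0.96 (adjusted p = 0.0252), Mep1a at -0.84 (adjusted p = 0.0269) and Mep1b at -1.90 (adjusted p = 0.0138). Of all genes, 17.8% were called lower and 6.4% higher, and lower genes made up 73.6% of calls, or 54.2% after cyclic loess. Alpl, at -1.24 (adjusted p = 0.0696), and Dpp4, at -0.32 (adjusted p = 0.115), did not pass. Without wild type 2 none of the 5 was called, with 0.98% of all genes. Without wild type 1 the calls were Mep1a and Mep1b, and without single mutant 2 they were Anpep and Mep1b. Without double mutant 3, Anpep at -1.47, Mep1b at -2.69 and Alpl at -2.32 were called and Mep1a was not.

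The chosen genes differed from wild type in double mutants by -1.91 for Treh, -1.65 for Nat8, -0.92 for Lap3 and -1.58 for Dnase1. The term for sex left Treh at -1.80 in single and -1.83 in double mutants, and moved Dnase1 to -3.30 and -2.86. For Dnase1 these values in turn moved to -1.50 in single and -1.96 in double mutants without single mutant 2, and to -4.66 in double mutants without double mutant 3. Among males alone, where 2 wild type mice face 1 single and 1 double mutant, Treh differed by -1.72 and -1.92, Nat8 by -1.88 and -1.44, and Mep1b by -2.09 and -1.50. Dnase1 differed by -4.20 in the male single mutant and by -1.96 in the male double mutant. Both sets of comparisons share the wild type mice. Over the 5 genes not chosen for a fall the median difference was -0.76 in single and -0.59 in double mutants, beside -0.07 and -0.08 over all tested genes. The medians over all 9, -1.26 and -0.92, include the 4 chosen genes.

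All 6 mutants lay below both wild type mice for 7 of the 9 genes, which include the 4 chosen ones, and for 3 of the 5 others, Anpep, Mep1a and Mep1b. Over all tested genes that was so for 21.4%. In whole kidney RNA, fewer proximal tubule cells and less RNA per cell cannot be told apart.

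**Figure D2:**
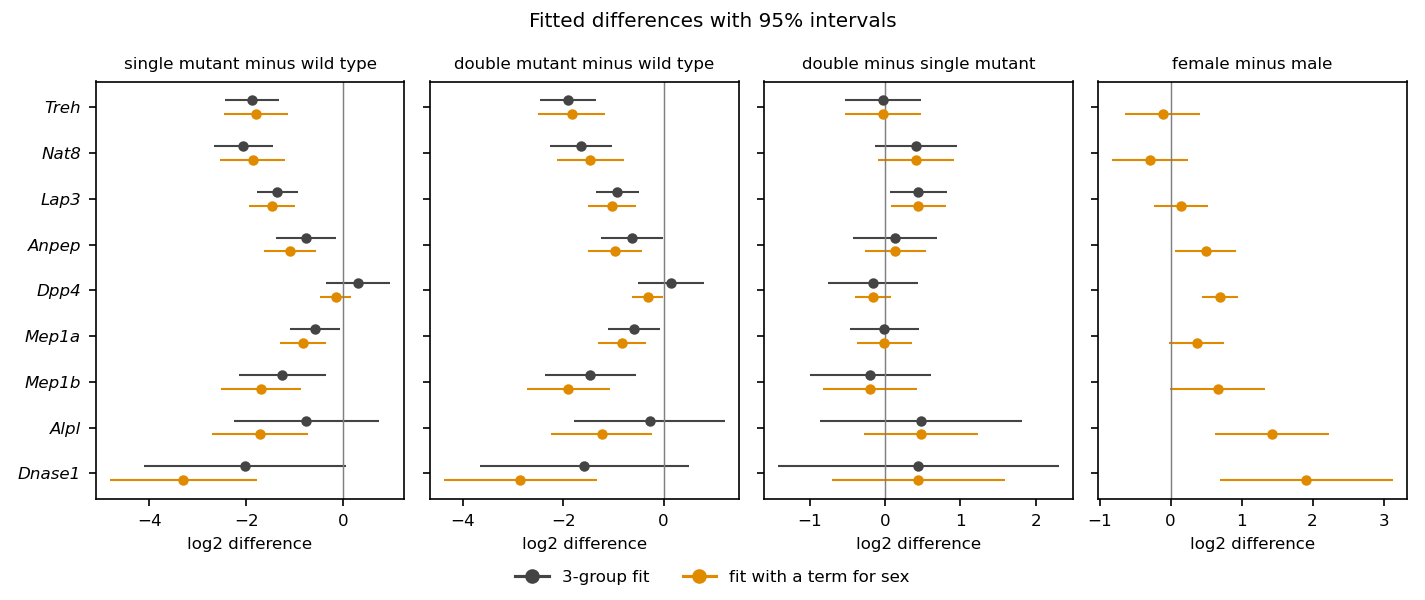
Fitted log2 differences of the 9 genes with 95% intervals in 4 comparisons, in the model of the 3 groups (grey) and in that with a term for sex (orange). Against wild type, the intervals of Anpep, Mep1a and Mep1b lie below 0 in both models. Those of Alpl in both comparisons, and of Dpp4 in double mutants, do so only with the term for sex. The intervals between the mutant groups include 0 except for Lap3. Treh, Nat8, Lap3 and Dnase1 were chosen for their position in the first 2 panels, so their intervals there are a description and no test.

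Double mutants were set against single mutants to ask whether loss of osteopontin altered the enzymes, and no gene passed. None of the 9 was called by limma in either model, nor was any of the 7145 tested genes (0%), although 104 had an unadjusted p under 0.05 in the model of the 3 groups and 273 with the term for sex. Lap3 came nearest among the 9, higher by 0.44 in double mutants (95% interval 0.06 to 0.82, unadjusted p = 0.0281, adjusted p = 1). Its 3 double mutants lay above its 3 single mutants, as was so for 2.02% of tested genes. Nat8 differed by 0.41 (-0.14 to 0.96) and Treh by -0.03 (-0.53 to 0.47), so that a difference over 0.53 in either direction lies outside the interval for Treh. The intervals were widest for Alpl, 0.48 (-0.86 to 1.81), and Dnase1, 0.44 (-1.42 to 2.30). For Anpep, Dpp4, Mep1a and Mep1b the differences lay between -0.20 and 0.14, and Mep1a, at -0.01, had an interval of -0.47 to 0.45.

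The difference between the mutant groups was then taken apart by sex, a comparison added after the data were seen. Dnase1 differed by -0.46 in females, 2 against 2, and by 2.24 in males, 1 against 1. The difference between these was -2.70 (adjusted p = 0.0591 in limma) and did not pass. For Alpl the values were -0.06 in females and 1.55 in males (adjusted p of the difference 0.131). Mep1b gave -0.59 and 0.59 (adjusted p = 0.272) and Anpep -0.12 and 0.65 (adjusted p = 0.268). No gene of 7145 was called in this test, and 913 had an unadjusted p under 0.05. The male arm is single mutant 2 alone against double mutant 3 alone, so each p rests on the spread within the other classes, with 3 residual degrees of freedom.

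Females and males were compared because sex and genotype overlap in these mice. Dpp4 was higher in females by 0.70 (SE 0.11, adjusted p = 0.0122), a 1.62-fold difference, and Alpl by 1.43 (SE 0.34, adjusted p = 0.0417), a 2.70-fold difference. These 2 of 9 genes passed, and 8.22% of all tested genes were called higher in females. Lower genes made up 19.4% of all calls, 37.7% after cyclic loess and 34.8% after quantile normalization, and under both of these Dpp4 alone passed among the 9. The other differences were 1.91 for Dnase1 (adjusted p = 0.0589), 0.66 for Mep1b (adjusted p = 0.169), 0.49 for Anpep (adjusted p = 0.126) and 0.37 for Mep1a (adjusted p = 0.184). Treh, at -0.11, Nat8, at -0.28, and Lap3, at 0.15, were the 3 genes with the smallest differences.

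Female mutants measured 8.78 to 9.10 for Dpp4, and male mutants 8.28 and 8.16. For Dpp4, Anpep, Mep1a, Alpl and Dnase1 the 4 female mutants lay above both male mutants, 5 of 9 genes, beside 29% of tested genes. The margin was narrow for Anpep, with the lowest female at 9.6593 and double mutant 3 at 9.6568. For Mep1a these values were 10.96 and 10.90. Without single mutant 2 neither call remained, with a Dpp4 difference of 0.66 (adjusted p = 0.076) and an Alpl difference of 0.63 (adjusted p = 0.223). The differences of Dnase1, Anpep, Mep1b and Mep1a were then 0.56, 0.11, 0.07 and 0.24. Without double mutant 3 the Alpl difference was 2.24, and Dnase1, Mep1b and Anpep were called as well. The call of Alpl was also lost without either wild type mouse and without any of single mutant 1, single mutant 3 or double mutant 1. Genes known to be high in male kidney had a mean level of 9.86 and 10.67 in wild type, 9.05 and 9.37 in the male mutants, and 7.06 to 7.39 in the female mutants.

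Across the 8 arrays most pairs of genes had a positive Pearson r, given here with the rank correlation rho. The chosen genes Treh, Nat8 and Lap3 had r of 0.96 (rho 0.81) for Treh and Nat8, 0.93 (rho 0.71) for Nat8 and Lap3, and 0.92 (rho 0.60) for Treh and Lap3, and the choice of genes low in every mutant makes such values high. Mep1a had r of 0.81 (rho 0.64) with Treh and 0.82 (rho 0.74) with Lap3. Of the genes not chosen, Mep1a and Mep1b had r of 0.92 (rho 0.90) and Anpep and Mep1a 0.90 (rho 0.98). Dnase1 had r of 0.95 with Anpep and 0.92 with Alpl. Alpl had r of only 0.19 with Treh and 0.18 with Nat8, and Dpp4 had r of -0.35 with Treh and -0.48 with Nat8. These arrays share the groups and the sexes, so the values describe both at the same time.

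Averaged over the 5 genes not chosen for a fall, the difference from the wild type mean was -0.34, -1.36 and -0.13 in single mutants 1, 2 and 3. It was -0.48, -0.41 and -0.79 in double mutants 1, 2 and 3. The male of each mutant group was the lowest of its group.

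Other tested genes were ranked by their likeness to the mean of the 9 over the 8 arrays. The 5 most alike were Ufm1, a ubiquitin-like modifier (r = 0.991), Amt, of the mitochondrial glycine cleavage system (0.991), Tmlhe, of carnitine synthesis (0.988), Lactb2 (0.987) and Tmem126a (0.987). Against wild type Ufm1 differed by -0.39 in single and -0.33 in double mutants, and Tmlhe by -1.02 and -0.84. The mean of the 9 includes the genes chosen for a fall, so genes like it are low in the mutants by that choice. The single gene most like each enzyme was Dnajc22 for Treh (r = 0.986), Echdc2 for Nat8 (0.971), Atg13 for Lap3 (0.979), Iscu for Anpep (0.994) and St3gal6 for Dpp4 (0.985). It was Tmem229a for Mep1a (0.982), Acad9 for Mep1b (0.995), the organic anion transporter Slc22a8 for Alpl (0.982) and Hibadh, of valine breakdown, for Dnase1 (0.995). These are the highest values among all tested genes outside the 9, over 8 arrays that share groups and sexes.

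Nat8 lies in a cluster of related genes, and the relatives with probe sets showed smaller differences. Nat8 was chosen for a fall and its relatives were not, so a wider difference for Nat8 was favoured by that choice. Nat8f3, at -70.4 kb from Nat8, differed by -0.76 in single and -0.58 in double mutants, and Nat8f2, at 33.7 kb, by -0.77 and -0.67. Nat8f7 differed by -0.19 and -0.22 and Nat8f1 by -0.01 and -0.14. Nat8f4 was under the filter on low values, with -0.13 and -0.10. None of the 4 tested relatives was called against wild type in either model. The relatives are similar in sequence, so how far their probes detect each other is uncertain.

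**Figure D3:**
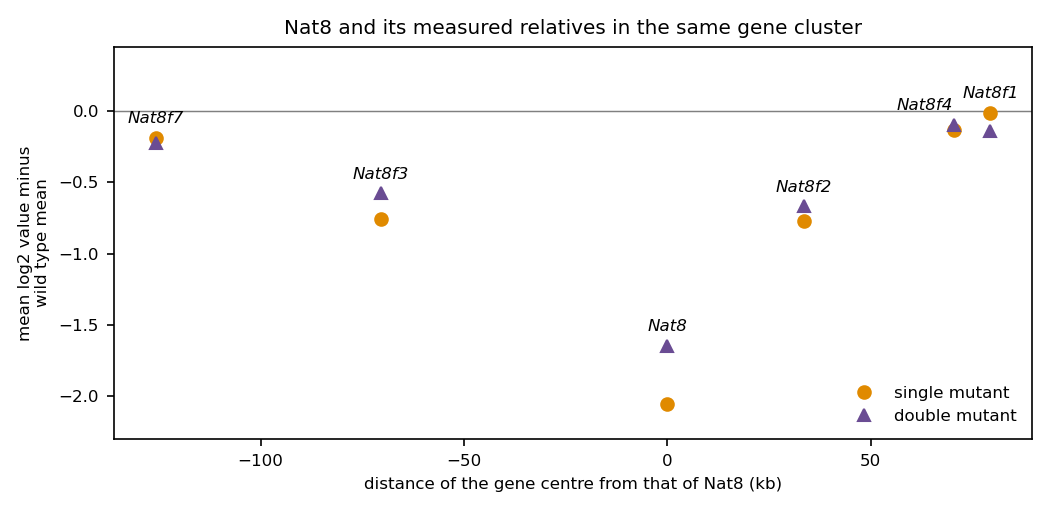
Mean log2 value minus the wild type mean for Nat8 and 5 related genes, against the distance in kb of each gene's centre from that of Nat8, for single mutants (circles) and double mutants (triangles). Nat8 lies at -2.06 and -1.65, Nat8f2 and Nat8f3 between -0.58 and -0.77, and Nat8f1, Nat8f4 and Nat8f7 between -0.22 and -0.01. Nat8 was chosen for a fall and the related genes were not, so its lower position was favoured by that choice.

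Other enzymes of the brush border also had medians under 0. Of 15 measured, 13 were tested, with a median difference of -0.64 in single and -0.45 in double mutants, beside -0.76 and -0.59 for the 5 enzymes not chosen for a fall, and none was called in the model of the 3 groups. With the term for sex, 7 of 13 were called lower in single mutants, beside the 19.9% of all genes. They were Folh1, which cleaves glutamate from folates, at -1.63 (-0.80 in the model of the 3 groups), Dpep1, a dipeptidase of glutathione breakdown, at -1.14 (-0.80) and the angiotensin-cleaving Enpep at -1.12 (-0.64). The others were Enpp3 at -1.11 (-0.71), the carbonic anhydrase Car4 at -1.11 (-0.96), Slc3a1 at -0.97 (-0.37) and Acy3 at -0.86 (-0.996). In double mutants 6 were called lower, beside 17.8% of all genes: Dpep1 at -0.95 (-0.61 in the model of the 3 groups), Enpp3 at -0.91 (-0.52), Acy3 at -0.87 (-1.004), Slc3a1 at -0.87 (-0.27), the angiotensin-converting enzyme Ace at -0.80 (-0.68) and the endopeptidase Mme at -0.67. Mme turned direction between the models, with 0.05 in the model of the 3 groups. In females 3 of 13, Mme, Slc3a1 and Cpm, were called higher, by 1.07, 0.90 and 0.74, beside 8.22% of all tested genes. Without single mutant 2, the share of all genes called between the sexes in either direction went from 10.2% to 1.95%.

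Genes of the microvillus scaffold and of endocytosis also had medians under 0. Of 17 measured, 16 were tested, with medians of -0.47 and -0.40, none was called in the model of the 3 groups, and 6 and 5 were called lower with the term for sex, beside 19.9% and 17.8% of all genes. Amn, which forms the receptor cubam for filtered proteins with Cubn, was called at -1.07 in single and -1.09 in double mutants (-0.93 and -0.95 in the model of the 3 groups). Cubn was called at -1.27 in single mutants with the term for sex, beside -0.41 without it. Single mutants 1 and 3, at 11.13 and 11.28, lay above both wild type mice for Cubn (11.02 and 10.85), and single mutant 2 lay at 9.17. Cdhr5, a cadherin that links microvilli, was called at -0.88 in single and -0.67 in double mutants (-0.70 and -0.49 in the model of the 3 groups).

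Glutathione breakdown and the mercapturate pathway, in which Nat8 takes the last step, came next. Of 20 genes measured beside the enzymes above, 12 were tested, with medians of -0.76 and -0.64, and none was called in the model of the 3 groups. With the term for sex the same number, 6, was called lower in each mutant group, beside 19.9% and 17.8% of all genes. Chac2, which cleaves glutathione in the cytosol, differed by -1.32 and -1.26 (-0.90 and -0.85 in the model of the 3 groups), and the aminoacylase Acy1 by -1.89 and -2.38 (-1.08 and -1.57). Acy3 and Dpep1 are counted here too.

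Genes of proximal tubule transport and identity, of which 26 of 28 measured were tested, had medians of -0.76 and -0.62. None was called in the model of the 3 groups, and 14 and 13 were called lower with the term for sex, beside 19.9% and 17.8% of all genes. Slc13a1, a sulfate transporter, was called higher in double mutants, at 0.68 (0.77 in the model of the 3 groups). Hnf4a, the proximal tubule transcription factor whose binding sequence was searched for above, fell with the term for sex, at -0.63 in single (adjusted p = 0.0378) and -0.76 in double mutants (adjusted p = 0.0243), beside -0.51 and -0.63 in the model of the 3 groups, which did not pass. Without single mutant 2, none of these lists had a call in single mutants in that model.

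Marker genes of macrophages and fibroblasts, and genes of tubule injury, lay higher on the mutant arrays. Macrophage and monocyte genes, 15 measured, had a mean level of 6.16 and 6.34 in wild type, 7.07, 8.45 and 7.06 in single mutants, and 7.83 to 8.12 in double mutants. Of their 11 tested genes none was called in the model of the 3 groups, and 9 were called higher in each mutant group with the term for sex, beside 7.31% and 6.4% of all genes. Fibroblast and matrix genes, 13 measured, ran from 6.95 and 7.01 in wild type to 7.999, 9.31 and 8.24 in single and 8.68 to 8.96 in double mutants. Tubule injury genes, 14 measured, ran from 6.15 and 6.40 to 7.16, 8.26 and 6.95 in single and 7.34 to 8.48 in double mutants. Single mutant 2, the array lowest for Lap3, Anpep, Mep1a, Mep1b, Alpl and Dnase1, was the highest of the 8 for the first 2 of these lists. In the model with sex, 9 of 11 tested fibroblast and matrix genes were called higher in each mutant group. So were 7 and 10 of 10 tubule injury genes in single and double mutants. In the model of the 3 groups, 1 fibroblast and matrix gene and 1 tubule injury gene were called higher in double mutants. Of all tested genes, 0.056% were called higher there. The part of macrophages, fibroblasts or injured tubule cells in the enzyme values was not tested.

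Lists of other nephron segments and cells had median differences that depended on the model. Without the term for sex, the medians in single and double mutants were 0.39 and 0.36 for podocytes, 0.06 and -0.07 for the loop of Henle and distal tubule, -0.09 and -0.26 for the collecting duct, and 0.25 and 0.23 for endothelium, and no gene of these lists was called. With it, the loop of Henle and distal tubule lay at -0.62 and -0.91, with 5 of 10 genes called lower in each mutant group, and the collecting duct at -0.63 and -0.67, with 2 and 3 of 11 called lower. Endothelium lay at -0.19 in both, with 2 of 9 called lower in each, and podocytes at 0.23 and -0.05, with 1 of 6 called higher in double mutants. In that model 19.9% and 17.8% of all tested genes were called lower in single and double mutants, and 6.4% higher in double mutants. The counts for the collecting duct and endothelium lay near these shares. The median over all tested genes was -0.15 in each mutant group. Medians below it were thus found in distal segments as well as in the proximal tubule.

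The proximal straight tubule, with 10 genes tested, lay at -0.63 and -0.77 without the term for sex, with no call, and at -1.27 and -1.38 with it, with 3 and 4 called lower. Female-high kidney genes, 9 tested, lay at -0.37 and -0.18 with no call, and at -1.88 and -2.20 with 4 and 5 called lower. No T, B or NK cell gene passed the filter on low values. Of 8 small intestine genes 3 were tested, with medians of -0.59 and -0.13 and no call, and 1 of the 3 was called lower in each mutant group with the term for sex. Of 7 liver genes 1 was tested, at -1.63 and -0.97, with no call in either model. Beside these counts, 19.9% and 17.8% of all tested genes were called lower in single and double mutants with the term for sex.

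**Figure D4:**
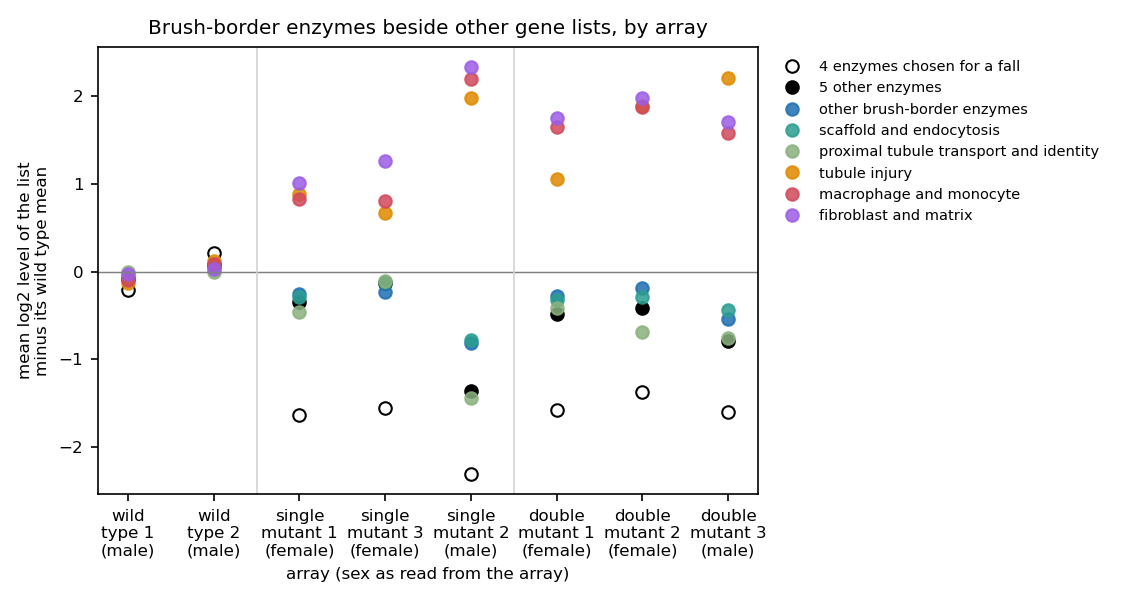
Mean log2 level of the enzymes and of 6 gene lists on each array minus the wild type mean, with arrays in order of group and sex as read from the array. Open circles are the 4 enzymes chosen because they were low in the mutants, so their position below 0 was fixed by that choice; the 5 other enzymes (black) run from -0.13 in single mutant 3 to -1.36 in single mutant 2, where macrophage and fibroblast genes lie highest.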

How the data were processed

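The deposited values were log2 expression values, 1 for each of 33793 probe sets and 8 arrays. They ran from 4.20 to 13.43, a span from which the unit was inferred. How the authors normalized and summarized the probes is not given in the labels used here. Per the labels, total kidney RNA was labelled with biotin. Of the probe sets, 23521 named 1 gene, 1814 several and 8458 none. The probe set with the highest mean stood for a gene. Genes whose mean exceeded 6.64, the 75th percentile over the probe sets, were tested, which left 7145. Positions are those of RefSeq for GRCm38.

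Groups were compared with limma 3.58.1 (lmFit, eBayes; R 4.3.3). The model of the 3 groups had 5 residual degrees of freedom and that with the term for sex 4. P values were two-sided, received the Benjamini-Hochberg adjustment over the 7145 genes, and were called under 0.05. They measure the spread between these mice, and precision is limited by the number of arrays. The steps were tested on simulated data.

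The genes, the lists and the tests were chosen with earlier results of these data known. All enzymes with values are named. Of each list, genes past the threshold could be named, or else the 3 with the smallest p. As most alike, the 5 genes nearest to the mean and the nearest to each enzyme were named. Lists of podocyte, loop of Henle, collecting duct, endothelial, lymphocyte, straight tubule, small intestine, liver and female-high genes were also computed. Alternatives were other normalizations, filters, priors, weights and probe set rules, fits of fewer groups or of 1 sex, a replicate block and leaving out each array. The difference of the mutant groups between the sexes was added after the data were seen. Figures were made in matplotlib 3.10.9 (Python 3.11.15).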

Additional observations from a re-analysis of the deposited data

How the results depend on the processing

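With only 8 arrays, and all wild type mice male, single arrays decide most calls. Of the 5 enzymes not chosen for a fall, the term for sex raised the count called from 0 to 4 in single mutants, and no other setting moved it from 0. In double mutants the count rose from 0 to 3 with the term for sex, 2 with array weights and 1 in a fit of only the groups compared, and was 0 to 2 when 1 array was left out, with 2 without single mutant 2. With the term for sex, leaving out 1 array gave 0 to 4 in single and 0 to 3 in double mutants. Between the sexes the count fell from 2 to 1 with array weights, cyclic loess or quantile normalization. It also fell to 1 with the filter at the 50th percentile, no filter or only the groups compared. The count rose to 3 with median centring and with the replicate block, where Dnase1 passed as well. Leaving out 1 array gave 0 to 5, with 5 without double mutant 3. Between the mutant groups it was 0 under every setting. Whether replicate numbers pair the mice is not known here. Correlations of deviations between arrays of the same number ran from -0.58 to 0.26. The sexes differed within each number, so these values cannot settle it. With the number as a replicate block, 0 enzymes were called against wild type, and 4 in each mutant group with the term for sex.

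Directions turned in small differences, and the cause was not tested. Dpp4 was below wild type in single mutants with the term for sex (-0.15) and in males (-0.18), and in double mutants likewise (-0.32 and -0.29). Between the mutant groups the turned values were -0.063 for Alpl, -0.12 for Anpep, -0.46 for Dnase1 and 0.053 for Treh in females, 0.15 for Mep1a and 0.59 for Mep1b in males, and -2.16e-05 for Anpep, -0.19 for Dnase1 and 0.086 for Treh with array weights. Leaving out 1 array gave -0.27 to 0.99 for Alpl, -0.16 to 0.34 for Anpep, -0.65 to 1.07 for Dnase1, -0.41 to 0.054 for Dpp4, -0.17 to 0.14 for Mep1a, -0.62 to 0.051 for Mep1b and -0.17 to 0.10 for Treh. With the term for sex it gave -0.063 to 0.79 for Alpl, -0.12 to 0.27 for Anpep, -0.46 to 0.88 for Dnase1, -0.093 to 0.12 for Mep1a and -0.21 to 0.10 for Treh. Between the sexes Lap3 turned to -0.018 with cyclic loess, and Treh to 0.10 with the replicate block and -0.24 to 0.014 without 1 array. Cyclic loess moved the median of all tested genes in single mutants, with the term for sex, from -0.15 to -0.035.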
